A study of Homo sapiens with 6 samples.

Results

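ASS1 and 9 other genes of arginine and polyamine metabolism were examined in SW872 cells, an established human liposarcoma cell line, with and without Apatinib. The 10 genes are ASS1, ASL, ARG2, SLC7A1, SLC7A2, ODC1, AZIN1, SRM, SMS and SAT1. They were taken by symbol from the 57773 genes of the count table, all 10 were found there, and all 10 passed the filter on low counts that left 16290 genes. The genes were listed with their Apatinib against control values in view. Their fold changes are therefore a description that carries no test, and nothing is drawn from how many of them met a criterion.

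The study compared mRNA of SW872 cells kept with 18 μM Apatinib for 24 h (3 replicates) with that of untreated SW872 cells (3 replicates). Apatinib is a tyrosine kinase inhibitor aimed mainly at the VEGF receptor encoded by KDR. Both groups were grown in RPMI-1640 with 10% FBS, a medium that itself holds arginine, and all samples come from a single cell line. The study's methods call the replicates biological, and the sources used here do not say whether the untreated cells received vehicle.

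Arginine can be taken up by the cell or made inside it. Argininosuccinate synthase (ASS1) joins citrulline with aspartate, and argininosuccinate lyase (ASL) splits the product into arginine and fumarate. The cationic amino acid transporters encoded by SLC7A1 and SLC7A2 carry arginine, lysine and ornithine across the plasma membrane. Mitochondrial arginase (ARG2) breaks arginine down to ornithine and urea. Ornithine decarboxylase (ODC1) turns ornithine into putrescine, the step that commits it to polyamine synthesis, and antizymes hold ODC1 down until the antizyme inhibitor AZIN1 takes them away. Spermidine synthase (SRM) and spermine synthase (SMS) build spermidine and spermine from putrescine, and spermidine/spermine acetyltransferase (SAT1) starts their breakdown and export. Many sarcomas express little ASS1 and then depend on arginine from outside.

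Total counts were between 17043314 and 22067558 per library. Control replicates 1 and 2 were much closer to each other (mean chi-square of 2.27 per gene between their counts) than the other pairs within a group (18.2 to 44.5), with Apatinib replicate 2 in the most distant pair. A differentially expressed gene (DEG) had to pass 0.05 in FDR and exceed 0.5 in absolute log2 fold change, and 1866 of the 16290 tested genes did. This number fell to 795 without Apatinib replicate 1, to 275 without control replicate 1 and to 300 without control replicate 2. Of 7 mesenchymal markers 6 had a mean FPKM above 1 and their summed FPKM was 1525 to 1817 with Apatinib and 1289 to 1463 in control, whereas of 7 adipocytic markers 2 (PPARG and LPL) passed this level, with sums of 23.1 to 32.3 and 21.9 to 24.4, and FABP4, ADIPOQ and LEP were listed at an FPKM of 0 in every library. None of 4 epithelial and none of 4 hepatocyte markers passed it, and 1 of 3 endothelial (TEK) and 1 of 4 leukocyte markers (CD14) did. The summed FPKM of the endothelial list was 1.81 to 2.57 with Apatinib and 1.96 to 2.41 in control, and that of the leukocyte list was 0.996 to 1.53 and 1.77 to 1.98, with PTPRC at 0. Of the markers of these 6 cell types COL3A1, COL6A1 and LPL met the DEG criteria as higher (log2 fold changes 1.18, 0.53 and 0.84) and CDH5 as lower (-1.22). KDR had 4 to 11 counts per library. The part of these lists in the values below was not tested. The summed FPKM of 4 proliferation markers was 199 to 332 with Apatinib and 389 to 460 in control. Of these markers MKI67, TOP2A and CDK1 met the DEG criteria as lower (log2 fold changes -1.19, -1.07 and -1.02), and CCNB1 did not (-0.32). The part of these differences in the values below was not tested. In bulk RNA, fewer cells of a kind and less RNA per cell cannot be told apart.

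The promoter windows of the 3 genes with the largest fold changes are shown, for ASS1 the 1 of its 2 windows that holds a motif match. Each window runs 5′ to 3′ on the strand of its gene, from 250 bases before to 50 bases after a start in RefSeq (GRCh38.p14), and capitals mark a motif match.
ASS1, chr9:130444711-130445010, plus strand: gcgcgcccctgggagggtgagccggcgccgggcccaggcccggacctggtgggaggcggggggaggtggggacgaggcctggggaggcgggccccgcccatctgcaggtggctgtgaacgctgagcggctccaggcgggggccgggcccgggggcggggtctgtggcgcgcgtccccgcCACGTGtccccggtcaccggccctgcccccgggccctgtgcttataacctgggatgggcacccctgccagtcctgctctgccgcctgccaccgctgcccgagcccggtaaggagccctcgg
SLC7A1, chr13:29595639-29595938, minus strand: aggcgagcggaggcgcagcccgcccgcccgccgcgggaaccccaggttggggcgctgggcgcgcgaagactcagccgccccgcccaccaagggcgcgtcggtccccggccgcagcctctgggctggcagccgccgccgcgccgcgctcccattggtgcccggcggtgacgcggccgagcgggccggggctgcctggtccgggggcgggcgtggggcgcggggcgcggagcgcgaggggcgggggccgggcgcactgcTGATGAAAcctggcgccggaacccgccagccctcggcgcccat
SAT1, chrX:23782923-23783222, plus strand: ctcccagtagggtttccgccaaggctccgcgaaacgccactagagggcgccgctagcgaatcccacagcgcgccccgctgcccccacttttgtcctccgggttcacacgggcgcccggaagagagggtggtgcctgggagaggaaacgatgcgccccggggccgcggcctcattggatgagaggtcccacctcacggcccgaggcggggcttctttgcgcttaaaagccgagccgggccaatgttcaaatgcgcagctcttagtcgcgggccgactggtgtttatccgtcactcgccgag

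The search covered 3 motifs on both strands of 10 windows that RefSeq gives for 8 of the 10 genes. They were CACGTG, the E-box read by MYC and its relatives, TGANTCA, the AP-1 site, and TGATGNAA, the composite element that C/EBP and ATF factors read in genes of amino acid supply. No match overlapped a match of another motif. ASS1 had CACGTG 71 bases before the start in 1 of its 2 windows, SRM had it 199 bases before the start, and ODC1 had it at 2 places of 1 window, 29 bases before and 5 bases after the start. CACGTG was in 7.26% of 35116 promoters of the same length. SLC7A1 had TGATGAAA, a match to TGATGNAA, 7 bases after its start, and 3.62% of the promoters held this motif. TGANTCA was in none of the 10 windows and in 7.71% of all promoters. ARG2, ASL, SAT1 and SMS had no match in these windows, which says only that the letters are not there. AZIN1 and SLC7A2 had no entry. A match is a run of letters, and no binding was measured here.

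ASS1 (ENSG00000130707), on chromosome 9, had the largest fold change of the 10 genes. In CPM, which are counts scaled to library size with TMM factors, its levels were 13.6, 23.9 and 7.27 in Apatinib replicates 1, 2 and 3, and 1.62, 2.58 and 1.33 in control replicates 1, 2 and 3. All 3 Apatinib values lay above all 3 control values, but replicate 2 was the highest library of either group. The means were 14.9 ± 8.42 and 1.84 ± 0.658 CPM (SD, n = 3), an 8.13-fold difference and a log2 fold change of 3.02 (SE 0.41). ASS1 ranked 6 of 16290 tested genes by log2 fold change. Against the control mean the 3 Apatinib replicates stood at 7.35, 13.0 and 3.94 times, so the size of the difference varied more than 3-fold between replicates treated alike.

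The depth behind ASS1 was low in control, with 28, 47 and 29 counts, and moderate with Apatinib, with 233, 424 and 127 counts. The table also lists 10 ASS1 pseudogenes, near-identical copies whose reads can be split from or added to those of ASS1 by the counting program, which is not named in the sources used here. Summed over the 10 pseudogenes, Apatinib replicates 1, 2 and 3 had 6, 12 and 6 counts, and the controls had 7, 10 and 9. This is 2.58% to 4.72% of the ASS1 counts with Apatinib and 21.3% to 31.0% in control. The pseudogene counts had about the same size in both groups while those of ASS1 did not. None of the 10 pseudogenes passed the filter on low counts, and the highest single value was 11 counts, for ASS1P12 in Apatinib replicate 2.

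**Figure D1:**
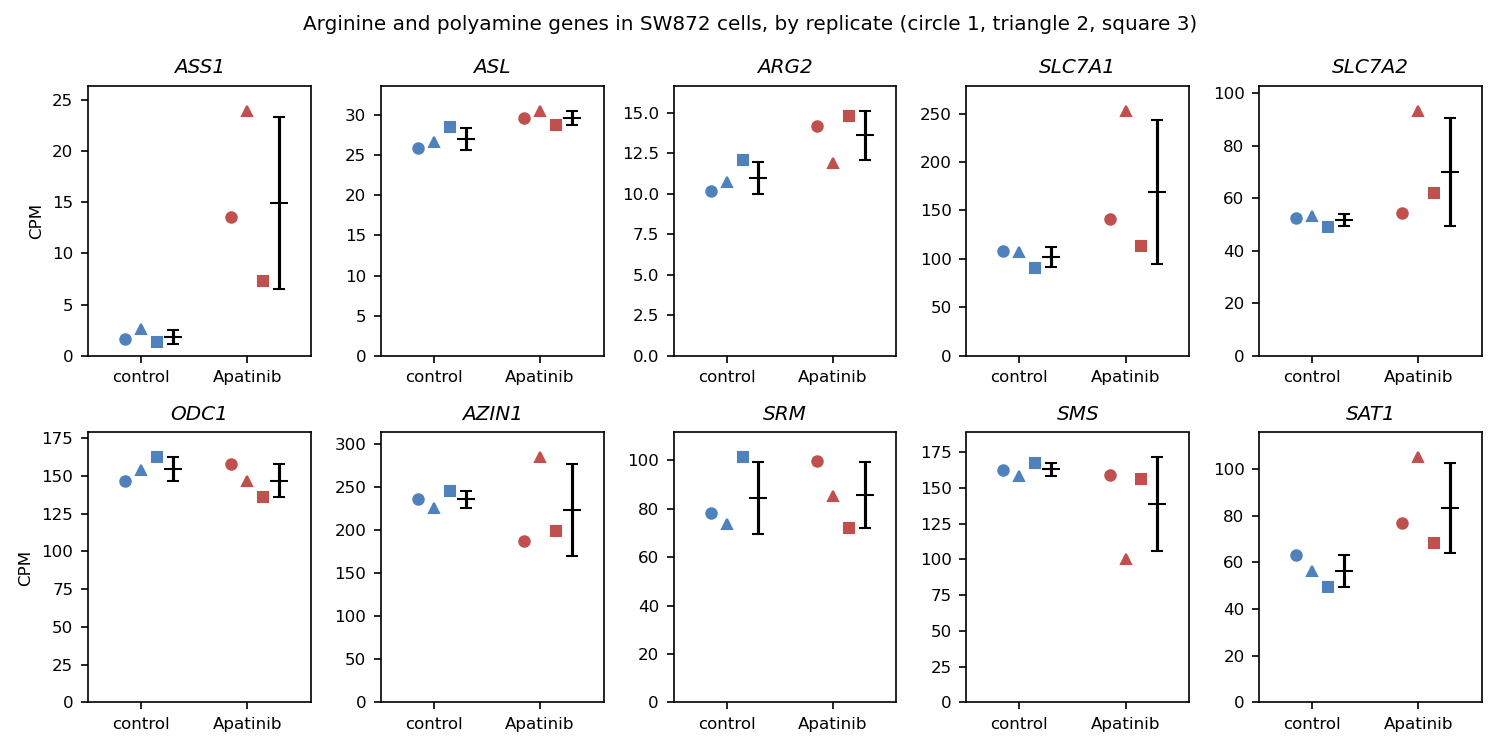
TMM-scaled CPM of the 10 genes in each replicate (circles replicate 1, triangles replicate 2, squares replicate 3) of the control group (blue) and the Apatinib group (red), with the mean ± SD (n = 3) in black and each axis starting at 0. ASS1, ASL, SLC7A1, SLC7A2 and SAT1 show no overlap between the groups, and Apatinib replicate 2 is the highest library for ASS1, ASL, SLC7A1, SLC7A2, AZIN1 and SAT1 and the lowest for SMS.

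ASL (ENSG00000126522), the enzyme that follows ASS1, differed far less. Its levels were 29.5, 30.5 and 28.7 CPM with Apatinib and 25.9, 26.6 and 28.5 CPM in control. The groups did not overlap, by a margin in CPM far smaller than the spread within control, and the log2 fold change was 0.13 (SE 0.12). In FPKM the margin was wider than that spread, at 24.4, 23.4 and 22.9 with Apatinib and 20.6, 20.1 and 20.7 in control. In GENCODE 29, ASL shares 563 of its 3195 exonic bases with AC068533.4 on the same strand, so that part of its reads may be divided between these genes. ASS1 and ASL act in sequence, and their FPKM values (reads corrected for the length of each transcript and for depth, so that genes can be compared) were far apart. The ratio of ASS1 to ASL in FPKM was 0.235, 0.483 and 0.138 with Apatinib and 0.0386, 0.0630 and 0.0215 in control. ASS1 thus stayed below ASL in every library, at a mean ratio of 0.285 with Apatinib and 0.0410 in control. With the CPM divided by the merged exon lengths of GENCODE 29, an alternative added after the data had been seen, these ratios were 0.522 and 0.0720.

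ARG2 (ENSG00000081181), which removes arginine, had 14.2, 11.9 and 14.8 CPM with Apatinib and 10.2, 10.7 and 12.1 CPM in control. Apatinib replicate 2 fell just under control replicate 3, so the groups overlapped on this scale. The log2 fold change was 0.31 (SE 0.16). On the FPKM scale the same libraries did not overlap, at 9.95, 9.09 and 9.05 with Apatinib and 7.59, 7.48 and 7.67 in control. ARG2 shares 904 of its 2418 exonic bases with VTI1B on the opposite strand, and reads of these genes cannot be told apart where counting ignores strand, which the sources do not state.

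SLC7A1 (ENSG00000139514), the broadly expressed arginine transporter, stood at 141, 253 and 113 CPM with Apatinib and at 108, 108 and 90.3 CPM in control. The groups did not overlap, yet Apatinib replicate 3 was only slightly above the highest control while replicate 2 was at 2.48 times the control mean. The means were 169 ± 74.0 and 102 ± 10.1 CPM (SD, n = 3), a log2 fold change of 0.73 (SE 0.24). SLC7A1 did not meet the DEG criteria in the fit of all 6 libraries. It met them without Apatinib replicate 3, with DESeq2, with the replicate block and with no filter on low counts. Without Apatinib replicate 2 its log2 fold change was 0.33.

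SLC7A2 (ENSG00000003989), the related transporter, had 54.3, 93.4 and 62.2 CPM with Apatinib and 52.6, 53.3 and 49.0 CPM in control. Apatinib replicate 1 exceeded the highest control value by a small margin and replicate 2 again stood apart. The log2 fold change was 0.44 (SE 0.18), and it was 0.18 without Apatinib replicate 2. In FPKM, SLC7A1 was above SLC7A2 in all 6 libraries, with ratios of 1.79 to 2.45 under Apatinib and 1.85 to 2.03 in control. These ratios overlapped between the groups.

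The genes of polyamine synthesis overlapped between the groups, as most tested genes did. ODC1 (ENSG00000115758) had 158, 146 and 136 CPM with Apatinib and 147, 154 and 162 CPM in control, with the groups interleaved. Its log2 fold change was -0.07 (SE 0.12). ODC1 varied little, with a coefficient of variation of 7.59% within the Apatinib group and 5.15% within control.

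AZIN1 (ENSG00000155096), the inhibitor of the antizymes, had 187, 285 and 199 CPM with Apatinib and 236, 226 and 245 CPM in control. Apatinib replicates 1 and 3 were below every control and replicate 2 was above every control. The log2 fold change of -0.08 (SE 0.16) therefore averaged opposite values, and without Apatinib replicate 2 it was -0.28. The exons of AZIN1 overlap those of AZIN1-AS1 on the opposite strand over 344 of 6426 bases.

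SRM (ENSG00000116649) had 99.6, 85.5 and 72.1 CPM with Apatinib and 78.3, 73.7 and 101 CPM in control, and control replicate 3 was the highest library. The log2 fold change was 0.02 (SE 0.16). SMS (ENSG00000102172) had 159, 101 and 156 CPM with Apatinib and 163, 159 and 168 CPM in control. Only Apatinib replicate 2 was clearly low, at 0.617 of the control mean, and the log2 fold change of -0.23 (SE 0.16) was -0.04 without it. The ratio of SRM to SMS in FPKM was 0.903, 1.24 and 0.684 with Apatinib and 0.701, 0.681 and 0.886 in control, and only Apatinib replicate 2 was above 1 on this scale. With merged exon lengths that library was at 0.968 and all 6 were below 1.

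SAT1 (ENSG00000130066), on chromosome X, was the other gene that met the DEG criteria. Its levels were 77.0, 105 and 68.1 CPM with Apatinib and 62.9, 56.3 and 49.3 CPM in control. The groups did not overlap, and replicate 2 was again the highest. The means were 83.4 ± 19.3 and 56.2 ± 6.79 CPM (SD, n = 3), a 1.49-fold difference and a log2 fold change of 0.57 (SE 0.17). This gene lay close to the limits of the criteria, and it met them in 1 of 6 fits that each left out 1 replicate, the fit without Apatinib replicate 3. Without Apatinib replicate 2 its log2 fold change was 0.38.

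Of the 10 genes, 2 (ASS1 and SAT1) met the DEG criteria, beside 11.5% of all tested genes. Both were higher with Apatinib, as were 5.97% of the tested genes, and no gene of the 10 met the criteria in the lower direction, as did 5.48%. In 5 genes (ASS1, ASL, SLC7A1, SLC7A2 and SAT1) every Apatinib value was above every control value, beside 17.5% of the tested genes, and in none was it below, beside 15.7%. The median log2 fold change was 0.22 over the 10 genes and 0.0028 over all tested genes, with 7 positive and 3 negative values among the 10. Since the genes were chosen on this comparison, nothing is read from these shares. The number that met the criteria was 1 (ASS1) without Apatinib replicate 1, Apatinib replicate 2, control replicate 1, control replicate 2 or control replicate 3, and 3 without Apatinib replicate 3, when SLC7A1 joined. ASS1 met them in all 6 of these fits, with log2 fold changes of 2.51 to 3.36.

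**Figure D2:**
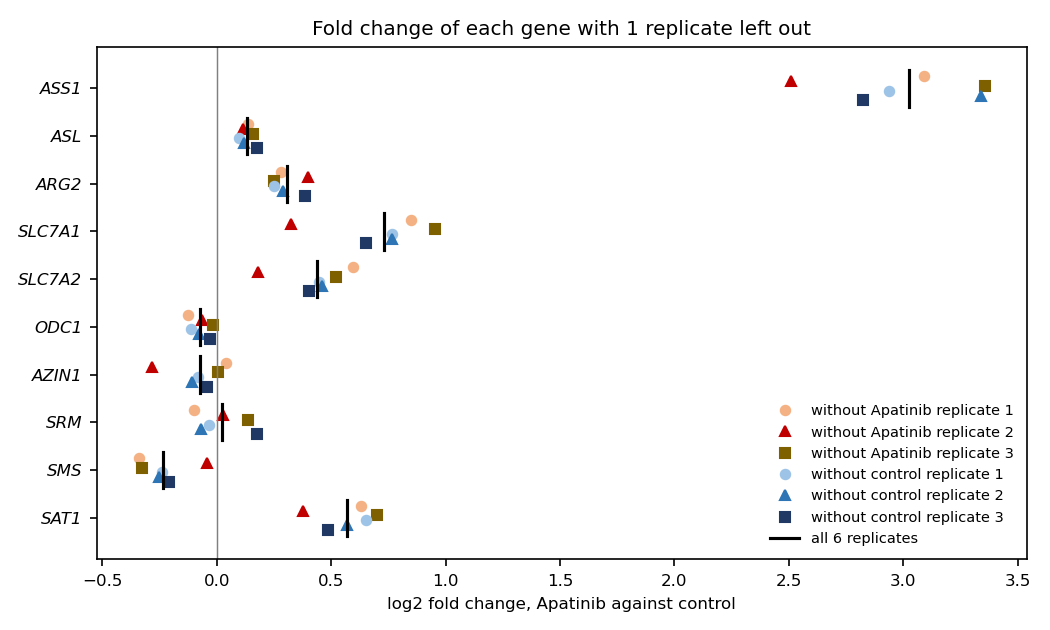
Log2 fold change of each gene (Apatinib against control, horizontal axis) in the fit of all 6 libraries (black bar) and in the 6 fits that each left out 1 library (symbols). Leaving out Apatinib replicate 2 (dark red triangles) moves ASS1 from 3.02 to 2.51, SLC7A1 from 0.73 to 0.33, SLC7A2 from 0.44 to 0.18, SAT1 from 0.57 to 0.38 and SMS from -0.23 to -0.04, and ASS1 remains far from 0 in every fit.

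Apatinib replicate 2 was the treated library farthest from the control mean for 6 of the 10 genes (ASS1, ASL, SLC7A1, SLC7A2, SMS and SAT1), and for 38.5% of all tested genes. Replicate 1 was the farthest for 45.7% and replicate 3 for 15.8% of all tested genes. Within the Apatinib group the coefficient of variation was 56.4% for ASS1, 43.7% for SLC7A1, 29.6% for SLC7A2 and 23.1% for SAT1, and within control it was 35.7%, 9.86%, 4.47% and 12.1% for the same genes. The coefficient was larger in the Apatinib group for 8 of the 10 genes and larger in control for ASL (3.05% and 4.93%) and SRM (16.0% and 17.6%). The closeness of control replicates 1 and 2 given above enters the control values.

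On the FPKM scale the control levels ran from SMS (62.5 ± 2.47, SD, n = 3) through SRM (47.3), ODC1 (40.7), AZIN1 (39.6), SAT1 (36.5), ASL (20.5), SLC7A1 (9.77), ARG2 (7.58) and SLC7A2 (4.97) down to ASS1 (0.836 ± 0.413). The control ranges of SRM, ODC1, AZIN1 and SAT1 overlapped from each to the next, so their order is not settled, and the other neighbouring pairs were apart on this scale. With Apatinib, SAT1 (54.4 ± 13.4) passed from place 5 to place 1, but its range of 45.0 to 69.7 overlapped those of SMS at 40.1 to 61.4, SRM at 42.0 to 54.1 and AZIN1 at 30.5 to 50.4. ASS1 stayed in place 10 at 6.74 ± 4.17, and its range of 3.15 to 11.3 now overlapped those of SLC7A2 at 5.35 to 10.5, ARG2 at 9.05 to 9.95 and SLC7A1 at 10.9 to 25.2. In control ASS1 had the lowest FPKM of the 10 genes in every library. With Apatinib its mean was the lowest, but in FPKM it was above SLC7A2 in replicates 1 and 2 and above ARG2 in replicate 2. The order depends on the length assigned to each gene. In CPM per kilobase of merged exons SAT1 was in place 5 in both groups, SLC7A1 (13.3 in control) was above ASL (8.45), and SLC7A2 (6.53) was above ARG2 (4.55). On that scale ASS1 was again in place 10 by its mean in both groups, it was below SLC7A2 in all 3 Apatinib replicates, and in replicate 2 it was above ARG2 (7.85 and 4.93).

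**Figure D3:**
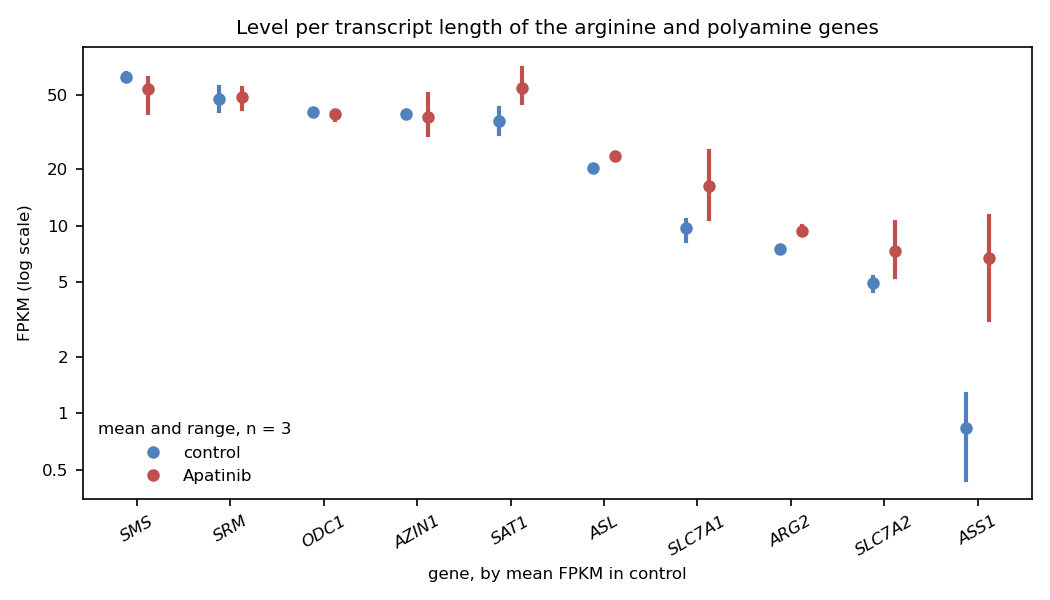
Mean FPKM (points) and range over 3 replicates (bars) of the 10 genes in control (blue) and Apatinib (red), on a log axis, ordered by the control mean. Control values run from 62.5 for SMS to 0.836 for ASS1, and the ASS1 mean of 6.74 with Apatinib lies within the range of SLC7A2.

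The mRNA level of ODC1 was compared with those of its regulators on the same scale, and their proteins were not measured here. OAZ1 encodes an antizyme, which marks ODC1 for degradation. The mRNA of OAZ1 was far more abundant than that of ODC1 in FPKM. The mean ODC1 to OAZ1 ratio was 0.108 ± 0.0205 with Apatinib and 0.130 ± 0.00643 in control (SD, n = 3). The ratios were 0.0974, 0.131 and 0.0946 with Apatinib and 0.126, 0.137 and 0.126 in control. They overlapped through Apatinib replicate 2. With merged exon lengths the mean ratios were 0.441 and 0.536, so how far OAZ1 exceeds ODC1 depends on the length assigned to each transcript. ODC1 and AZIN1 were close in FPKM, with ratios of 0.812 (replicate 2) to 1.33 (replicate 1) under Apatinib and 0.973 to 1.06 in control, and the treated replicates lay on either side of the controls. With merged exon lengths these ratios were 1.11 to 1.83 under Apatinib and 1.34 to 1.47 in control, so ODC1 was then above AZIN1 in all 6 libraries.

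The pattern of ASS1 over the 6 libraries was compared with that of the other 16289 tested genes by the Pearson correlation of log2 CPM. The libraries fall into 2 groups, which alone give a high value, so the correlations describe likeness only. The 5 highest belonged to MMP28 (0.996), a matrix metalloproteinase, OCRL (0.996), an inositol phosphatase, CFD (0.996), the complement factor adipsin, ZDHHC11B (0.994), a palmitoyltransferase family member, and NEDD4L (0.993), a ubiquitin ligase. MMP28 went from 0.739 CPM in control to 2.44 with Apatinib, and OCRL from 75.0 to 88.0, so genes of quite different size of change shared the order of libraries with ASS1. Among the other 9 genes SAT1 was the most like ASS1 (0.92, place 616), followed by SLC7A1 (0.87, place 1178), ASL (0.81, place 1935) and SLC7A2 (0.79, place 2167), and SMS was the least like it (-0.73).

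The rest of the pathway was described by 8 lists of 64 other genes written from textbook membership, with earlier results of these data known. Of the 55 that were tested, 4 were DEGs, all higher with Apatinib (edgeR quasi-likelihood test, Benjamini-Hochberg adjusted over all 16290 genes), and the median log2 fold change was 0.0084. This is 7.27% of the lists, beside 11.5% of all tested genes. The number was 2 without Apatinib replicate 1, 1 without control replicate 1 or control replicate 2, and 7 without Apatinib replicate 3 or control replicate 3.

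Of the 5 tested genes of the urea cycle and of aspartate and glutamine supply, GOT1, the cytosolic transaminase that makes aspartate, rose from 45.0 ± 3.73 to 65.3 ± 13.0 CPM (SD, n = 3, log2 fold change 0.54, adjusted p = 0.045 by edgeR), and its call held in 2 of the 6 fits that left out a replicate (those without Apatinib replicate 3 and without control replicate 3). Its mitochondrial partner GOT2, the most abundant gene of this list in FPKM, was at 208, 162 and 178 CPM with Apatinib and at 169, 164 and 196 CPM in control. OTC and ARG1, urea cycle enzymes of the liver, did not pass the filter on low counts, with at most 2 counts per library.

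Of 9 tested transporters of arginine, ornithine and aspartate, SLC3A2 rose. It encodes the heavy chain that brings light chains such as those of SLC7A6 and SLC7A7 to the cell surface. Its levels were 302, 656 and 225 CPM with Apatinib and 205, 186 and 187 CPM in control, without overlap. The log2 fold change was 1.03 (SE 0.30, adjusted p = 0.045 by edgeR), it was 0.46 without Apatinib replicate 2, and the call held in 2 of 6 fits that left out a replicate (those without Apatinib replicate 3 and without control replicate 3). With DESeq2 the adjusted p was 0.12. Like SLC7A1 and SLC7A2, SLC3A2 was highest in Apatinib replicate 2. SLC25A13, a mitochondrial aspartate carrier, was at 48.6, 40.5 and 49.8 CPM with Apatinib and at 65.1, 61.1 and 68.6 CPM in control, with a log2 fold change of -0.49 (adjusted p = 0.031 by edgeR), under the fold limit. Without Apatinib replicate 3 it met the DEG criteria (-0.54, adjusted p = 0.040 by edgeR), and in the other 5 fits that left out a replicate the adjusted p was 0.055 to 0.13.

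Among 5 tested genes of ornithine and proline, PYCR1, the mitochondrial enzyme that completes proline synthesis, rose with the smallest adjusted p of these pathway genes. Its levels were 134, 126 and 113 CPM with Apatinib and 70.8, 67.9 and 71.2 CPM in control. The groups lay far apart, with a log2 fold change of 0.83 (SE 0.12, adjusted p = 0.0039 by edgeR), and the call held in all 6 fits that left out a replicate. OAT and ALDH18A1, which lead from ornithine and glutamate towards proline, were not DEGs, at log2 fold changes of -0.14 (0.018 without Apatinib replicate 2) and -0.13.

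Of 6 tested genes of polyamine breakdown and transport, SAT2, a relative of SAT1, rose from 20.1 ± 2.41 to 31.5 ± 1.77 CPM (SD, n = 3, log2 fold change 0.65, adjusted p = 0.015 by edgeR), and the call was lost without control replicate 1 and without control replicate 2. SMOX, which oxidises spermine, was not a DEG in the fit of all 6 libraries. It had 87.3, 188 and 59.9 CPM with Apatinib beside 72.7, 73.3 and 73.8 CPM in control, and its log2 fold change of 0.61 was 0.0094 without Apatinib replicate 2. It met the criteria without Apatinib replicate 3 (0.91, adjusted p = 0.046 by edgeR) and with no filter on low counts. None of the 4 tested genes of polyamine synthesis and antizyme control was a DEG. AMD1, whose product supplies the aminopropyl groups used by SRM and SMS, had 47.7, 34.8 and 62.9 CPM with Apatinib and 78.3, 80.8 and 62.4 CPM in control, with a log2 fold change of -0.61 (adjusted p = 0.060 by edgeR). It met the DEG criteria, in the lower direction, with DESeq2, with the replicate block (adjusted p = 0.011), with no filter on low counts (adjusted p = 0.0025) and without Apatinib replicate 3 or control replicate 3.

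The remaining lists held no DEG. They cover 15 tested genes of other arginine use, with PRMT1 the most abundant in FPKM (log2 fold change -0.07), 7 of the methionine cycle and salvage, with MAT2A the most abundant (-0.29), and 4 of hypusine formation from spermidine, with EIF5A the most abundant (-0.37).

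**Figure D4:**
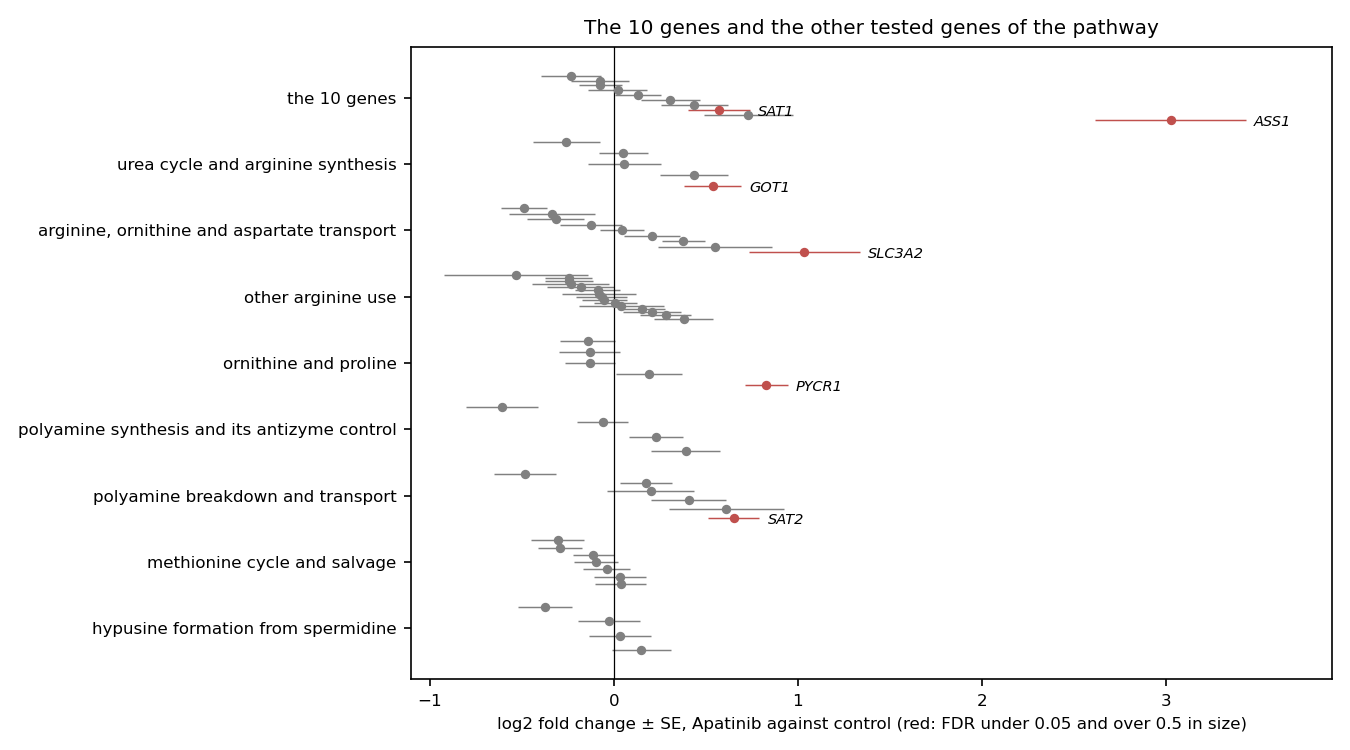
Log2 fold change ± SE (Apatinib against control, 3 replicates each) of the 10 genes and of the 55 other tested genes by list, with DEGs in red and named. ASS1 at 3.02 lies far to the right of all others, SLC3A2 at 1.03 and PYCR1 at 0.83 are the next among the DEGs, and no DEG lies below 0.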

How the data were processed

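The 10 genes, the lists of other genes and the tests were chosen with earlier results of these data known. RNA of 3 Apatinib and 3 control samples was grouped by GEO's treatment labels. The authors deposited a table of raw counts per gene, as whole numbers, and FPKM values for each sample. The submitters' processing notes name CASAVA, STAR 2.7.1a and hg19, with no roles. The program that counted and the annotation are not given in the sources used here. Some genes with 0 counts have an FPKM above 0, so the deposited FPKM values were not made from the count table. An extra column in the FPKM values of Apatinib replicate 1 (1 column) was not used.

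The test on counts was edgeR 4.0.16 in R 4.3.3, with filterByExpr, TMM factors (0.952 to 1.03) and the quasi-likelihood F test, and Benjamini-Hochberg adjustment over 16290 genes. A DEG had to pass 0.05 in FDR and exceed 0.5 in absolute log2 fold change. SE is the log2 fold change divided by the square root of F, and log2 CPM uses a prior count of 2. The test was checked on simulated counts. Named genes are the 10 genes, the DEGs and the gene of highest mean FPKM in each list, the 5 genes most like ASS1, OAZ1, and ASS1, ASL and SRM pseudogenes. SLC25A13, AMD1, SMOX, OAT, ALDH18A1, OTC, ARG1, SLC7A6 and SLC7A7 were named after their values were seen. Alternatives were DESeq2 1.42.0, limma 3.58.1 on FPKM values (pseudocounts 1 and 0.1, mean FPKM over 0.5), other filters and scaling, a replicate block, and fits without each replicate. Exon overlaps come from GENCODE 29 (GRCh38), promoters from RefSeq.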

Additional observations from a re-analysis of the deposited data

How the results depend on the processing

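The count of DEGs among all tested genes (1866) was 292 with control replicates 1 and 2 summed, 796 and 810 with limma on log2(FPKM + 1) and log2(FPKM + 0.1), 9 with limma on log2(FPKM + 1) without a filter, 74 with glmTreat and 275 to 2594 in the fits without 1 replicate. The count among the 10 genes (2) was 1, 1, 1, 0, 1 and 1 to 3 under the same settings in the same order, and that among the other pathway genes (4) was 1, 2, 2, 0, 0 and 1 to 7. ASS1 met the criteria in all of these fits apart from limma without a filter. Its log2 fold change was 1.96 with limma on log2(FPKM + 1), with and without the filter, and 2.78 on log2(FPKM + 0.1). The log2 fold change changed sign for SRM with control replicates 1 and 2 summed (-0.051) and, in the fits without 1 replicate, for SRM (-0.098 to 0.18), AZIN1 (-0.28 to 0.041), PRMT1 (-0.20 to 0.049), GOT2 (-0.050 to 0.14) and OAT (-0.26 to 0.018). The log2 fold changes of the other genes recomputed under these settings kept their direction. The causes were not tested.

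The labels number the replicates of both groups alike, but the labels and the study's methods name no pairing. The deviations of same-numbered samples from their group means correlated at -0.26, 0.08 and -0.22. With 3 samples per group these values cannot decide whether the samples are paired. With the replicate block there were 2215 DEGs, 3 of the 10 genes (SLC7A1 joined) and 5 of the other pathway genes. DESeq2 gave 2046, 3 and 4. The 28 to 47 counts of ASS1 in the controls limit how precisely its fold change is known. So does the spread of its Apatinib replicates, at 3.94 to 13.0 times the control mean.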
